A study of Mus musculus with 14 samples.

Results

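Complement is the set of blood and tissue proteins that tags targets for removal, and 8 of its genes were followed here in the mouse left ventricle: the C1q chains C1qa, C1qb and C1qc, the central components C3 and C4b, the protease Cfd (factor D, also called adipsin) and the receptors C3ar1 and C5ar1. They were taken by gene symbol from a table of 49315 genes, and all 8 were among the 15292 genes with enough reads for a test. The mice carried either the wild-type Hcn4 gene (WT) or the knock-in allele HCN4(Y527F) (HCN4F), a gain-of-function change in the C-linker of the pacemaker channel HCN4 (the labels do not give its zygosity). Male mice underwent transverse aortic constriction (TAC), which loads the left ventricle with pressure, or a Sham operation at 10 to 12 weeks of age, and hearts were taken 5 weeks later. Polyadenylated RNA of whole left ventricle was sequenced in 14 libraries: 4 WT-Sham, 4 HCN4F-Sham, 2 WT-TAC (replicates 2 and 3) and 4 HCN4F-TAC. Further WT-TAC samples were not analysed here. Each library is described as a biological replicate.

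Complement can be started by C1q binding to antibody or altered surfaces (classical pathway), by sugar-binding collectins and ficolins (lectin pathway) or by a slow turnover of C3 that factor B and factor D amplify (alternative pathway). All routes cleave C3, and the small fragments C3a and C5a signal through the receptors encoded by C3ar1 and C5ar1. In the heart, resident macrophages are a known source of C1q, while the liver supplies most circulating complement protein.

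Depth was 22309914 to 35210939 reads per library, so that a count of 0 allowed up to 0.0859 to 0.137 CPM (reads of a gene relative to library size, scaled by TMM). Such limits and the counting intervals given below cover counting error only. The cardiomyocyte markers were abundant in every library (summed level 50520 to 69310 CPM over 7 markers), as the labelled tissue requires. Some libraries stood apart in other markers. HCN4F-TAC 2 held the atrial transcripts Myl7 (9.91 CPM), Myl4 (17.4 CPM) and Sln (3.79 CPM), whose medians over the 14 libraries were 0.088, 1.83 and 0 CPM. HCN4F-Sham 2 held the mesothelial transcripts Upk3b (4.29 CPM) and Msln (2.56 CPM). HCN4F-TAC 4 held them at 1.26 and 1.10 CPM, with a mesothelial sum of 11.1 CPM against 5.93 to 8.09 CPM in the rest of its group. Results that change without one of these libraries are given with and without it.

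The genes of the C1q chains lie side by side on the reverse strand of chromosome 4 (GRCm38, GENCODE M21), within 18675 bases: C1qb at chr4:136880129-136886187, C1qc at chr4:136889804-136893065 and C1qa at chr4:136895917-136898803. C3 (chr17:57203970-57228136) and C4b (chr17:34728380-34743882) are on chromosome 17, and Cfd (chr10:79890853-79892655), C3ar1 (chr6:122847138-122856161) and C5ar1 (chr7:16246743-16259540) are on other chromosomes. C3 shares its strand with the microRNA gene Mir6978 inside it. Of the 50-base stretches of the longest C4b transcript, 35.2% also occur in C4a, so reads could be split between these copies. C4a itself reached at most 0.294 CPM. The other 7 genes shared no such stretch with another gene.

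RefSeq promoter windows (GRCm38.p6) were found for 6 of the 8 genes, all but C1qa and C4b. The 250 bases before the start are shown for the 3 whose window lies outside annotated transcripts: C1qb for the chains that moved together, C3 as the most abundant read source and Cfd as the gene called after TAC. Capitals mark GAGGAA (a core bound by PU.1 and other ETS factors) in C1qb and TTNNGNAA (a C/EBP-type core) in C3, searched on both strands.
C1qb, chr4:136886201-136886450, reverse strand: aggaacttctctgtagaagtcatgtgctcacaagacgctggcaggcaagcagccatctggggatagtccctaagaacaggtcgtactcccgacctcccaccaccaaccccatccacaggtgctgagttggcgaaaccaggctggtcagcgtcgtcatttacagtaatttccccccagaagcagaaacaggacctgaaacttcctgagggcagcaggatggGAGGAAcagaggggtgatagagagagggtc
C3, chr17:57228137-57228386, reverse strand: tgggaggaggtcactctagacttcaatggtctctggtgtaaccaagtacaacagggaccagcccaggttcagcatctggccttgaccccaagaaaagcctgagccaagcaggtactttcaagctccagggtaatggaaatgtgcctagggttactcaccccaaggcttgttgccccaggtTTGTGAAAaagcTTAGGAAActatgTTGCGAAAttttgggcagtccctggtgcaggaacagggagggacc
Cfd, chr10:79890603-79890852, forward strand: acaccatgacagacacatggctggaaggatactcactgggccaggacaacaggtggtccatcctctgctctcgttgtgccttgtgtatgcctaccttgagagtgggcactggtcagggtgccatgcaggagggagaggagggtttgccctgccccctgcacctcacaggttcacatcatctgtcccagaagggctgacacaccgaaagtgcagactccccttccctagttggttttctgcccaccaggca
GAGGAA occurred once in the C1qb window and in 23.3% of all 32851 promoter windows of this length. TTNNGNAA occurred 3 times in the C3 window, without overlap, and at least once in 36.8% of all windows. Neither was found in the Cfd window, and TATAAA, present in 12.4% of all windows, was in none of the 3 windows shown. These matches are descriptions of the letters only.

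Compared per length, as CPM per kb of exon, the genes formed a high and a low tier. C1qa had the highest mean over all 14 libraries (47.5 ± 10.3 CPM per kb, SD), followed by C1qb (30.9 ± 6.58), C3 (30.1 ± 9.77) and C1qc (19.9 ± 4.00). C1qb and C3 did not differ beyond their spread, and their order was not the same in all groups: C3 was above C1qb in both Sham groups (36.2 against 28.9 CPM per kb in WT and 33.9 against 31.6 in HCN4F) and below it in both TAC groups (18.8 against 24.2 and 25.9 against 35.6). C1qc had a mean of 32.0 CPM per kb when its longest transcript was used as length, so its place in the order rests on the gene model. C4b (3.74 ± 1.33 CPM per kb), C5ar1 (2.41 ± 0.606) and C3ar1 (1.11 ± 0.277) were lower, and the ranges of C4b (2.17 to 6.46) and C5ar1 (1.81 to 3.88) over the libraries overlapped. Cfd was last at 0.209 ± 0.209 CPM per kb.

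**Figure D1:**
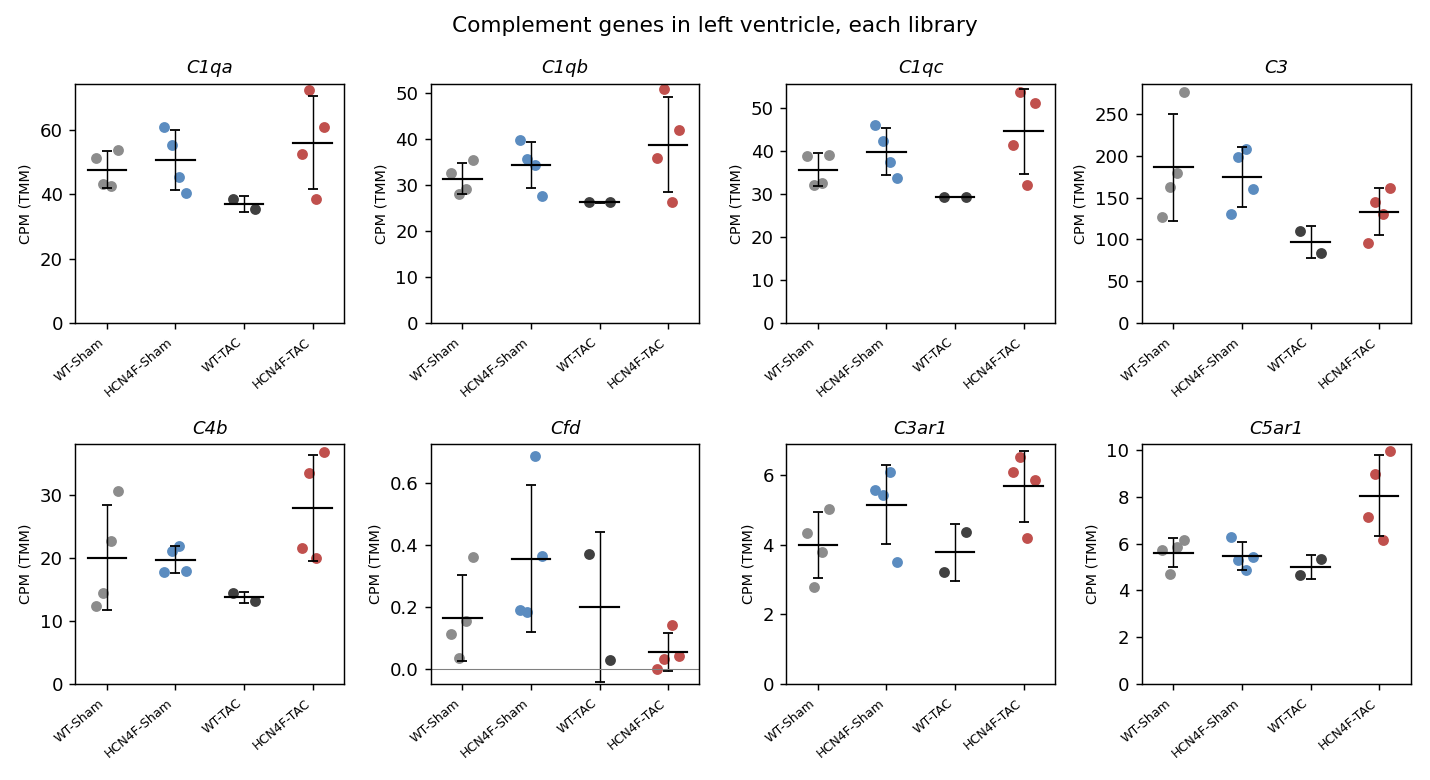
TMM-scaled CPM (y axis, linear, a grey line marks 0 where an SD bar passes below it) of each of the 8 complement genes in every library, by group (x axis). Points are libraries, horizontal lines are group means and bars are SD (n = 4, or n = 2 for WT-TAC). C5ar1 reached 6.15 to 9.97 CPM in the HCN4F-TAC libraries and 4.88 to 6.29 CPM in the HCN4F-Sham libraries.

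After TAC in HCN4F hearts, 2 of the 8 genes passed the test: C5ar1 rose and Cfd fell. The other 6 did not pass. After TAC in WT hearts none passed, and 7 of the 8 were lower, as were 8178 of all 15292 tested genes. The 7 include the C1q chains, whose levels moved together. Differences were tested with edgeR's quasi-likelihood test over all 4 groups with Benjamini-Hochberg (BH) adjustment over all 15292 genes. A gene passed with an adjusted p under 0.05 and was called where its log2 fold change also exceeded 1 in size. By adjusted p alone, 13.6% of all tested genes passed in the HCN4F comparison and 4.54% in the WT comparison. With both thresholds it was 2.75% and 0.706%. Counts of 2 (1 of them called) and 0 among 8 genes are too small to be read as departing from these shares. In WT, 1 of the 8 had an unadjusted p under 0.05, against 22% of all tested genes, and DESeq2 on all groups passed 1 of 7 with a value (C3) and 8.66% of all genes.

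C1qa encodes the A chain of C1q, the recognition molecule of the classical pathway. It was at 51.3, 43.1, 42.7 and 53.7 CPM in the WT-Sham libraries and at 61.0, 55.5, 45.4 and 40.5 CPM in the HCN4F-Sham libraries. After TAC it was at 38.7 and 35.3 CPM in WT and at 52.4, 72.5, 38.4 and 61.0 CPM in HCN4F. Both WT-TAC values were below all WT-Sham values, whereas the HCN4F groups overlapped. C1qb was at 28.1 to 35.5 CPM in WT-Sham, 27.7 to 39.9 CPM in HCN4F-Sham, 26.2 and 26.4 CPM in WT-TAC and 26.3 to 50.9 CPM in HCN4F-TAC. C1qc was at 32.0 to 39.0 CPM in WT-Sham, 33.6 to 46.1 CPM in HCN4F-Sham, 29.3 and 29.4 CPM in WT-TAC and 32.1 to 53.6 CPM in HCN4F-TAC. In all 3 genes the WT-TAC libraries lay below the WT-Sham ones, and HCN4F-TAC 3 was the lowest of its group while HCN4F-TAC 2 was the highest. In WT, 4 of the 8 genes (the C1q chains and C3) were lower after TAC with no overlap, as were 20% of all tested genes.

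None of these differences passed the test. In WT the log2 fold changes after TAC were -0.37 for C1qa (95% interval -0.82 to 0.09), -0.26 for C1qb (-0.69 to 0.18) and -0.28 for C1qc (-0.65 to 0.09), with adjusted p from 0.332 to 0.487 in edgeR. In HCN4F they were 0.15 (-0.21 to 0.52), 0.17 (-0.17 to 0.52) and 0.16 (-0.14 to 0.46), with adjusted p from 0.48 to 0.602. C1qa passed in the fits of the WT groups alone (edgeR -0.35, adjusted p = 0.0473, and DESeq2 -0.35, adjusted p = 0.0231), in which 13.6% and 15.2% of all genes passed.

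The chains kept a nearly fixed ratio to each other. C1qa made up 38.8% to 41.9% of their summed CPM over the 14 libraries, C1qb 26.7% to 29.4% and C1qc 30.3% to 33.1%. With the group mean subtracted, their pairwise Pearson r over the 14 libraries ranged from 0.967 to 0.979, a description in which the points share library and depth. Their summed level was 103.3 to 128.2 CPM in WT-Sham, 101.7 to 146.9 CPM in HCN4F-Sham, 91.1 to 94.3 CPM in WT-TAC and 96.8 to 177 CPM in HCN4F-TAC.

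C1q was set beside macrophage markers. The summed level of 10 markers (Cd68, Adgre1, Csf1r, Cd163, Mrc1, Fcgr1, Mertk, Cx3cr1, Cd14 and Lyz2) was 157.5 to 188.6 CPM in WT-Sham, 174.7 to 221.4 CPM in HCN4F-Sham, 167.2 to 175.6 CPM in WT-TAC and 165.3 to 239.8 CPM in HCN4F-TAC. C1q per marker CPM was 0.66 ± 0.0169 (SD, n = 4), 0.61 ± 0.0742 (n = 4), 0.541 ± 0.0317 (n = 2) and 0.664 ± 0.08 (n = 4) in the same order. C1q per marker was lower in both WT-TAC libraries (0.564 and 0.519) than in every WT-Sham library (0.639 to 0.68), while the marker sums of these groups overlapped. Of the single markers, Cd68 (-0.43 on the log2 scale) and Mertk (-0.29) were lower in WT after TAC without overlap, as were 20% of all tested genes, and Cd14 (0.46) was higher, as were 19.2%. In HCN4F, Cd163 (-0.48) was lower without overlap, as were 7.16% of all genes, and Cx3cr1 (0.80) was higher, as were 7.95%. Of the 10 markers, 1 (Cd14, 0.63 on the log2 scale) rose after TAC in HCN4F, where 13.6% of all genes passed, and none passed in WT, where 4.54% did. In bulk tissue, fewer cells of a type and less RNA per cell cannot be told apart, and the part of macrophage number in the C1q levels was not tested. The genes whose level followed the mean of the chains most closely, with group means subtracted, were Selplg (r = 0.961), Cotl1 (r = 0.949) and Rnf181 (r = 0.927) over 14 libraries.

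**Figure D2:**
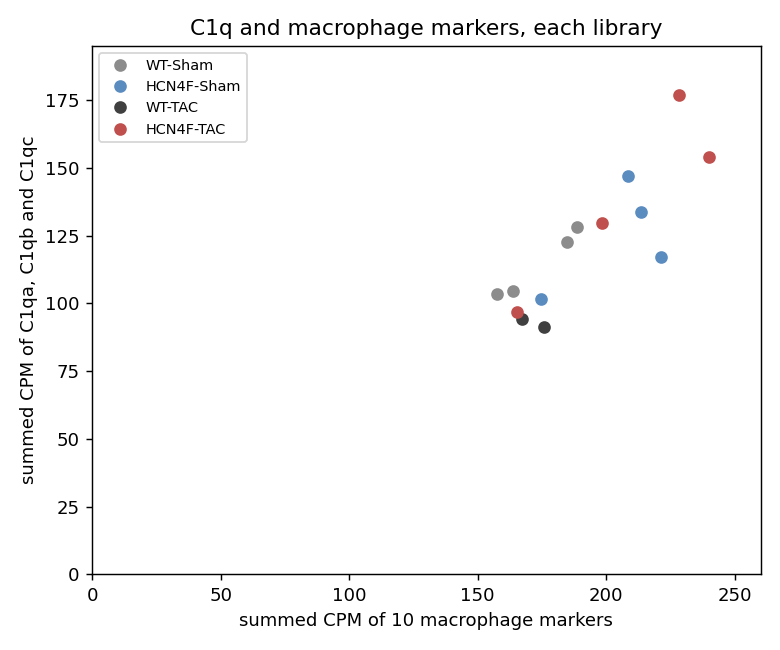
Summed TMM-scaled CPM of C1qa, C1qb and C1qc (y axis) against the summed CPM of 10 macrophage markers (x axis), 1 point for each of the 14 libraries, coloured by group. The libraries run from 91.1 to 177 CPM of C1q and from 157.5 to 239.8 CPM of markers, with HCN4F-TAC 3 near the WT-TAC libraries.

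C3, the component on which all pathways converge, was at 127, 163, 179 and 276 CPM in WT-Sham and at 131, 198, 208 and 160 CPM in HCN4F-Sham. It was at 110 and 83.2 CPM in WT-TAC and at 95.5, 144, 130 and 162 CPM in HCN4F-TAC. The WT-TAC libraries lay below every WT-Sham library, and the HCN4F groups overlapped. The log2 fold change after TAC was -0.95 ± 0.30 (SE) in WT (adjusted p = 0.0943, edgeR, BH) and -0.39 (95% interval -0.90 to 0.13) in HCN4F (adjusted p = 0.31). Leaving out WT-Sham 4, the highest library, gave -0.69 in WT, and DESeq2 on all groups put C3 past the threshold (adjusted p = 0.0413).

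C4b, which with C2 forms the C3-cleaving enzyme of the classical and lectin pathways, was at 12.4, 14.5, 22.6 and 30.7 CPM in WT-Sham and at 17.8, 21.1, 21.9 and 17.9 CPM in HCN4F-Sham. It was at 14.4 and 13.1 CPM in WT-TAC and at 21.6, 33.5, 20.1 and 36.8 CPM in HCN4F-TAC. The SD was 8.35 CPM in WT-Sham and 8.40 CPM in HCN4F-TAC, and the HCN4F-TAC libraries lay above both WT-TAC libraries. The log2 fold change after TAC was -0.55 (95% interval -1.30 to 0.20) in WT and 0.51 (-0.08 to 1.10) in HCN4F. Neither passed (edgeR, adjusted p = 0.375 and 0.245).

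Since C3 and C4b are read in the same library, their ratio needs no scaling between libraries. This measure was chosen after the values were seen. C3 reads per C4b read were 10.3, 11.2, 7.90 and 9.0 in WT-Sham, 7.33, 9.39, 9.49 and 8.97 in HCN4F-Sham, 7.67 and 6.35 in WT-TAC and 4.43, 4.31, 6.50 and 4.4 in HCN4F-TAC. Every HCN4F-TAC library was below every HCN4F-Sham library, and 3 of the 4 lay near 4.4 while HCN4F-TAC 3 was higher. In an exact two-sided permutation test of the log2 ratio, TAC and Sham differed by -0.86 in HCN4F (p = 0.0286, the smallest this design allows, and 0.114 after adjustment over the 4 comparisons). In WT the difference was -0.45 (exact permutation p = 0.133, the smallest possible). The genotypes differed by -0.12 in Sham (p = 0.429) and by -0.53 after TAC (p = 0.267) in the same exact test. None of the 4 comparisons passed after adjustment, and with so few libraries none could have, so the adjusted test cannot decide. Within groups, C3 and C4b had a Pearson r of 0.839 over the 14 libraries, while C3 and C1qa had 0.146. Pairs in between included C3 and Cfd (0.622), C4b and C5ar1 (0.575) and C4b and C1qb (0.532).

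**Figure D3:**
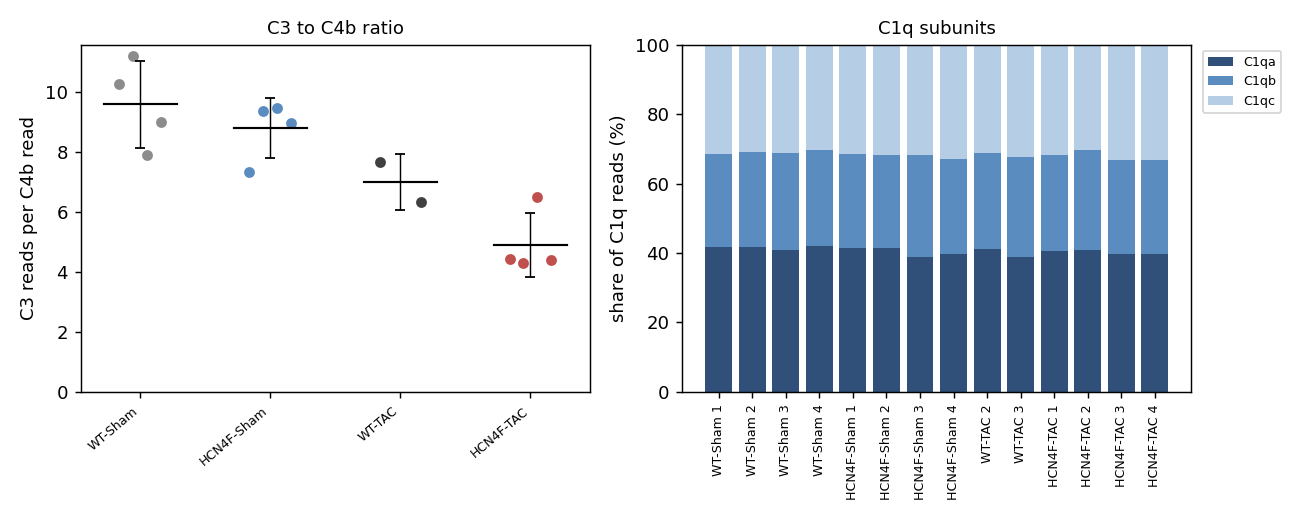
Left, C3 reads per C4b read (y axis, from 0) by group (x axis), with points for libraries, lines for means and bars for SD. Right, the share of summed C1q CPM from each chain (y axis, %) in every library: C1qa stayed between 38.8% and 41.9%, and the C3 to C4b ratio was 4.31 to 6.50 in HCN4F-TAC against 7.33 to 9.49 in HCN4F-Sham.

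The genes most like C3 over the libraries with group means subtracted were H2afy2 (r = 0.874), Zfp248 (r = 0.86) and Mfsd7a (r = 0.855). For C4b they were Pdia4 (r = 0.919), Plcg2 (r = 0.902) and Taok3 (r = 0.868). For Cfd they were Appl2 (r = 0.877), Bhlhb9 (r = 0.862) and Ero1lb (r = 0.842). These are correlations over 14 libraries without a test.

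Of 8 fibroblast markers, 4 (Col1a1, Col1a2, Lum and Mfap5) rose after TAC in HCN4F, where 13.6% of all tested genes passed in either direction. Pdgfra, Tcf21, Dcn and Dpt did not pass. The summed level of the 8 was 799.3 to 1271 CPM in HCN4F-TAC, 660.4 to 844.4 CPM in HCN4F-Sham, 684.2 to 705.5 CPM in WT-Sham and 622 to 727.8 CPM in WT-TAC. In WT, 1 of 8 (Dpt) fell, where 4.54% of all tested genes passed. Their part in the C4b level, which did not pass in either genotype, was not tested.

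Cfd, the protease that cleaves factor B and is best known from fat cells, was close to the detection limit. Its raw counts were 3, 1, 4 and 11 in WT-Sham, 5, 4, 19 and 12 in HCN4F-Sham, 9 and 1 in WT-TAC, and 0, 1, 4 and 1 in HCN4F-TAC. HCN4F-Sham 3 held the highest count, and 3 of the 4 HCN4F-TAC libraries had at most 1 read. Cfd was called in HCN4F after TAC (log2 fold change -2.61 ± 0.83 SE, adjusted p = 0.0483, edgeR, BH), with no overlap in CPM, as for 7.16% of all tested genes in this direction. As summed reads, 6 after TAC against 40 in Sham gave a depth-scaled ratio of 0.153 (exact 95% binomial interval 0.0529 to 0.362). Leaving out 1 library moved the log2 fold change from -2.11 (without HCN4F-Sham 3) to -3.62 (without HCN4F-TAC 3). The call was lost without HCN4F-Sham 3 (adjusted p = 0.131), HCN4F-Sham 4 (0.0833), HCN4F-TAC 1 (0.108), HCN4F-TAC 2 (0.128) or HCN4F-TAC 4 (0.105), and Cfd did not pass the filters of the fit on the HCN4F groups alone. In WT, 10 reads in WT-TAC against 19 in Sham gave a ratio of 0.989 (0.411 to 2.24). The fitted log2 fold change was 0.05 (95% interval -1.94 to 2.05) and turned to -2.39 without WT-TAC 2.

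Of the 8 adipocyte markers, Adipoq, Plin1, Cidec, Lep, Retn, Pck1 and Ucp1 reached at most 0.274 CPM in any library. Within HCN4F, Adipoq went from a mean of 0.102 CPM in Sham to 0.0184 CPM after TAC, Cidec from 0.191 to 0.0462 CPM and Pck1 from 0.143 to 0.019 CPM. Each was lower without overlap between the libraries, as were 7.16% of all tested genes. After TAC each was at most 0.0814 CPM, below what a count of 0 allowed. Plin1 overlapped (0 to 0.188 CPM in Sham and 0 to 0.122 CPM after TAC), and Lep, Retn and Ucp1 had at most 2 reads in any HCN4F library. In WT, mean Adipoq went from 0.0287 to 0.0205 CPM and Cidec from 0.0522 to 0.0205 CPM, while Pck1 went up from 0.0692 to 0.162 CPM. None of these 7 markers had enough reads for the edgeR test. Cidea, which was at 21.4 to 27.6 CPM, did not pass in any comparison. The summed level of all 8, which is almost all Cidea, was 21.5 to 27.7 CPM over the libraries. The part of fat cells in the Cfd level was not tested.

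C5ar1, the receptor for C5a on myeloid cells, was the member that rose after TAC in HCN4F hearts. It was at 5.73, 4.72, 5.85 and 6.14 CPM in WT-Sham and at 6.29, 5.29, 4.88 and 5.43 CPM in HCN4F-Sham. It was at 4.64 and 5.35 CPM in WT-TAC and at 7.13, 8.96, 6.15 and 9.97 CPM in HCN4F-TAC. The HCN4F groups overlapped by HCN4F-TAC 3 alone, which was below HCN4F-Sham 1. The log2 fold change was 0.56 ± 0.14 (SE) in HCN4F, or 1.47-fold (adjusted p = 0.0164, edgeR, BH), and -0.16 (95% interval -0.54 to 0.22) in WT (adjusted p = 0.636). Without HCN4F-Sham 2 both C5ar1 (adjusted p = 0.0384) and Cfd (0.0479) still passed. Without HCN4F-TAC 2 the C5ar1 value was 0.50 (adjusted p = 0.058) and without HCN4F-TAC 4 it was 0.44 (adjusted p = 0.0623).

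C3ar1, the receptor for C3a, was at 2.79 to 5.03 CPM in WT-Sham, 3.50 to 6.07 CPM in HCN4F-Sham, 3.20 and 4.35 CPM in WT-TAC and 4.20 to 6.52 CPM in HCN4F-TAC. The groups overlapped within each genotype. Its log2 fold change after TAC was -0.07 (95% interval -0.59 to 0.46) in WT and 0.15 (-0.27 to 0.56) in HCN4F, and neither passed the edgeR test (adjusted p = 0.907 and 0.669).

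**Figure D4:**
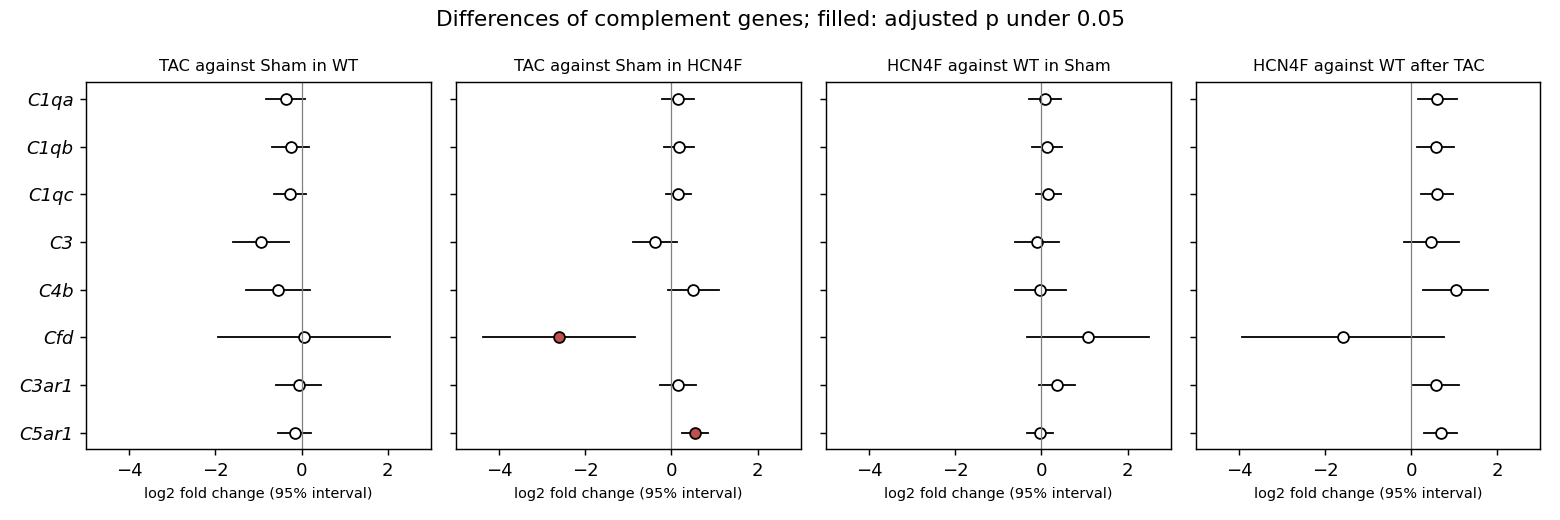
Log2 fold change (x axis) with its 95% interval for each of the 8 complement genes (y axis) in the 4 comparisons, filled where the adjusted p was under 0.05. Filled points are Cfd (-2.61) and C5ar1 (0.56) for TAC against Sham in HCN4F, and the intervals of Cfd are the widest.

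Genotypes were compared within each surgery. In Sham hearts none of the 8 genes passed in edgeR, where 0.471% of all tested genes did (0.209% with the fold threshold). None passed in DESeq2 on all groups (2.24% of all genes), and 0 had an unadjusted p under 0.05 (15.2% of all genes). The log2 differences ranged from -0.10 for C3 to 1.08 for Cfd, and for C5ar1 it was -0.04 (95% interval -0.34 to 0.27). After TAC, 7 of the 8 genes were higher in HCN4F, as were 50.7% of all tested genes. None of the 8 passed, against 0.111% of all genes (0.0719% with the fold threshold). The median log2 difference of the 8 was 0.59, and that of all genes was 0.00. At an unadjusted p under 0.05 there were 6 of 8, against 12.5% of all tested genes. The 6 include the C1q chains, whose levels moved together, and all rest on the same 2 WT-TAC libraries. DESeq2 on all groups passed 1 of 7 with a value (C5ar1, adjusted p = 0.0395) and 1.63% of all genes.

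C1qc, C4b and C5ar1 were higher in all HCN4F-TAC libraries than in both WT-TAC libraries, as were 11.3% of all tested genes. C4b differed most among them (log2 difference 1.03, 95% interval 0.27 to 1.79, adjusted p = 0.254), followed by C5ar1 (0.68, 0.30 to 1.06, adjusted p = 0.139) and C1qc (0.60, 0.23 to 0.97, adjusted p = 0.178) in edgeR. C4b passed in DESeq2 on these groups alone (1.02, adjusted p = 0.00522), as did 1.18% of all genes. Without HCN4F-TAC 3, C1qa, C1qb, C1qc and C5ar1 passed in edgeR (adjusted p from 0.0105 to 0.0311), as did 2.97% of all genes. Of the 10 macrophage markers 8 and of the 8 fibroblast markers 8 were higher in HCN4F after TAC, as were 50.7% of all tested genes, and none of them passed. Their part in these differences was not tested.

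The genotype by surgery interaction (the TAC response in HCN4F minus that in WT) passed for none of the 8 genes in edgeR (0% of all genes). In DESeq2 on all groups it passed for none of 7 (0.246% of all genes), and Cfd had no adjusted p there. The value was -2.66 for Cfd, but from -3.71 to -0.22 without 1 library, the latter without WT-TAC 2. Among the other members it was largest in size for C4b (1.06, adjusted p = 0.495) and C5ar1 (0.72, adjusted p = 0.439) in edgeR. At an unadjusted p under 0.05 there were 2 of 8 members and 9.27% of all genes.

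Of 50 other complement genes, 30 had enough reads for a test. The 20 others included 13 with at most 3 reads in every library, 6 of them with no read in any, among the latter the lectins Mbl1, Mbl2 and Fcnb and the terminal components C8b and C9. In HCN4F after TAC, 3 of the 30 rose and 1 fell, none beyond a log2 change of 1. These 4 of 30 are close to the 13.6% of all tested genes that passed, so they are given as values of single genes. Masp1, a protease of the lectin pathway, rose by 0.85 ± 0.13 (SE, adjusted p = 0.000397). Clu (clusterin, an inhibitor of the terminal complex) rose by 0.40 ± 0.07 (adjusted p = 0.00158) and Colec12, a collectin of the cell surface, by 0.45 ± 0.12 (adjusted p = 0.0194). Cd59a, a membrane inhibitor of the terminal complex, fell by 0.42 on the log2 scale (adjusted p = 0.00296). All of these are edgeR values with BH adjustment.

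Masp1 was at 5.37 to 6.59 CPM in HCN4F-Sham and 9.15 to 12.2 CPM in HCN4F-TAC, without overlap. Clu was at 362 to 373 CPM in HCN4F-Sham, 467 to 513 CPM in HCN4F-TAC, 451 to 554 CPM in WT-Sham and 408 and 433 CPM in WT-TAC. Clu was lower in HCN4F than in WT in Sham hearts (-0.40, adjusted p = 0.0202, edgeR), and it was the 1 of the 30 genes that passed there, against 0.471% of all tested genes. In WT after TAC none of the 30 passed, against 4.54% of all tested genes, with C7, a terminal component, at -1.14 (95% interval -1.90 to -0.39, adjusted p = 0.083, no overlap), Masp1 at 0.46 (0.0874), Clu at -0.21 (0.174), Cd59a at -0.36 (0.0523) and Colec12 at -0.01 (0.989). There 24 of the 30 were lower, as were 8178 of all 15292 tested genes (median log2 fold change -0.22, and -0.02 over all genes). In HCN4F 17 were higher, as were 48.9% of all tested genes (median 0.12, and -0.01 over all genes).

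By role, the tested genes of the classical and lectin pathway (8) had median log2 fold changes of -0.11 in WT and 0.14 in HCN4F after TAC. The 7 membrane regulators had -0.21 and -0.42, the 4 soluble regulators -0.17 and 0.31, the 7 other receptors -0.23 and 0.18. The pairs of the alternative pathway (Cfb and Cfp) and the terminal pathway (C7 and C8g) had -0.40 and 0.25, and -0.77 and -0.43. After TAC, 25 of the 30 were higher in HCN4F than in WT, as were 50.7% of all tested genes. The median was 0.30, and 0.00 over all genes. None of the 30 passed, where 0.111% of all tested genes did.

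**Figure D5:**
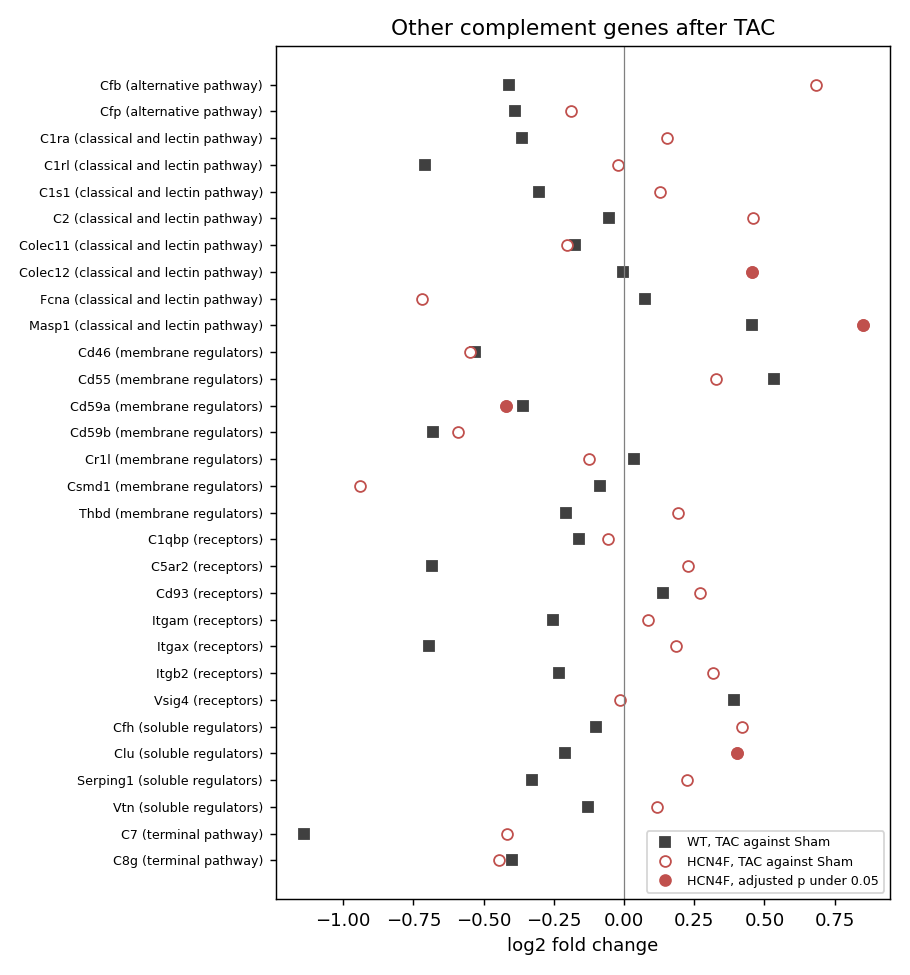
Log2 fold change after TAC (x axis) of the 30 tested other complement genes (y axis, with their group). Squares are WT, circles HCN4F, filled where the adjusted p was under 0.05. The filled genes are Masp1 (0.85), Colec12 (0.45), Clu (0.40) and Cd59a (-0.42).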

How the data were processed

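RNA-Seq of polyadenylated RNA from left ventricle was available for 14 libraries. The authors deposited raw counts of reads per gene with no normalization. The genome build in the submitters' processing notes is GRCm38. How reads were aligned and counted, with which annotation and strand setting, is not given in the sources used here. Left unused were 2 columns of the table whose names match none of the 14 libraries.

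Groups were taken from the sample labels. Genes were kept by edgeR's filterByExpr, counts were scaled with TMM, and all groups were fitted in 1 model with edgeR 4.0.16 in R 4.3.3 (quasi-likelihood test, robust, BH over 15292 genes). CPM carry no pseudocount. Within-group correlations used log2 CPM with a prior count of 2. Alternatives used DESeq2 1.42.0, other filters, scalings and sample sets. The test was checked on simulated data. Gene models are GENCODE M21 (GRCm38), promoters RefSeq (GRCm38.p6). Itgam is listed under more than 1 identifier, and the one with most counts was used.

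All 8 members were named. Of the 50 other complement genes, those with an adjusted p under 0.05 in a comparison were named, at most 12, and the 3 genes closest to the C1q mean, C3, C4b and Cfd among those with a mean CPM of at least 1. Mbl1, Mbl2, Fcnb, C8b, C9, Cfb, Cfp, C7 and C8g were named after their values were seen. The members and all lists were chosen with earlier results of these data known. The edgeR p-values weigh a group difference against a spread between these libraries that is fitted over all 4 groups and drawn towards that of other genes. With 2 libraries, WT-TAC adds little to this spread.

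Marker lists were cardiomyocyte, atrial, endothelial, fibroblast, mesothelial, macrophage, recruited monocyte, neutrophil and adipocyte genes. The test of 1 recruited monocyte marker is not reported here.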

Additional observations from a re-analysis of the deposited data

Results flagged for a closer look

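The C3 to C4b ratio of HCN4F-TAC 3 (6.50 reads per read) stood far from the 3 other HCN4F-TAC libraries. Of 42 groups of 4 examined this was the only such case. Chance alone gives about 1 in 20 groups, so a single case is no more than chance gives. C4b, C5ar1 and Clu had TAC libraries that were all below the Sham mean in WT and all above it in HCN4F. These are 3 of 12 genes examined, which were the 8 members and the other complement genes that had passed in a comparison. TAC libraries on opposite sides of the Sham mean in either order were found in 5.57% of all 15292 tested genes. Clu was examined because it had passed, so the count cannot be set against this share. The differences of the log2 fold changes were 1.06 for C4b, 0.718 for C5ar1 and 0.61 for Clu, and none passed the interaction test in edgeR (adjusted p = 0.495, 0.439 and 0.168).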

How the results depend on the processing

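In HCN4F after TAC, 1 of the 8 members was called, 0 with the edgeR or DESeq2 fit of the compared groups alone, with a mean CPM of at least 1, with the replicate block or with glmTreat, and 2 by adjusted p alone. Leaving out 1 library gave 0 to 1 called. After TAC, HCN4F against WT gave 1 called member (C4b) in DESeq2 on the compared groups and 0 otherwise. Among other complement genes, C7 made the count 1 in WT after TAC under DESeq2 (both fits), the edgeR fit of the compared groups and non-robust estimation. For the interaction, counted by adjusted p alone, Clu (0.61) made the count 1 under DESeq2 on all groups, with no filter and without HCN4F-TAC 3. By adjusted p alone the counts were 4 in HCN4F after TAC and 1 in Sham. With both thresholds, the count in HCN4F after TAC went from 0 to 1 (Fcna) without HCN4F-TAC 2. Leave-one-out counts of other complement genes were 0 to 1 in these comparisons.

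The replicate numbers did not pair the libraries: 2 of 12 same-number pairs correlated over 0.1 (r from -0.12 to 0.159), and 4 correlated best with their own number. With the replicate block, Cfd had an adjusted p of 0.0672 and C3 in WT passed (0.0431). C4b in Sham turned to 0.0358. Without 1 library, some values changed sign. In Sham between genotypes, C1qa ranged from -0.0214 to 0.18, C3 from -0.24 to 0.16, C4b from -0.20 to 0.25 and C5ar1 from -0.11 to 0.0165. In HCN4F after TAC, C3ar1 ranged from -0.00786 to 0.27 and C1qa from -0.0010 to 0.30. In WT after TAC, Cfd ranged from -2.39 to 1.11 and C3ar1 from -0.32 to 0.13. After TAC between genotypes, Cfd (-1.58) ranged from -2.63 to 0.86, the latter without WT-TAC 2. The C3 to C4b difference in HCN4F ranged from -0.998 to -0.80 without 1 library, where the exact test cannot reach 0.05. Of 697 alternative values of members' log2 fold changes, 670 kept their direction and stayed called or not called. Only Cfd in HCN4F was called in the main fit, so this count says little about the other values. A member that gained or lost the adjusted p without the fold threshold was mostly not counted as changed. The setting by adjusted p alone repeats the main values. Cfd had no value in some comparisons under DESeq2 on all groups, the edgeR and DESeq2 fits of the compared groups alone and the mean CPM filter, at 0 to 19 reads a library.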

Other observations

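Other marker lists gave these values, where after TAC 13.6% of all tested genes passed in HCN4F and 4.54% in WT. The 6 neutrophil markers summed to 0.574 to 1.31 CPM in WT-Sham, 1.96 to 2.97 CPM in HCN4F-Sham, 2.43 and 3.74 CPM in WT-TAC and 1.83 to 5.79 CPM in HCN4F-TAC, and Ly6g had no read in any library. After TAC in WT, S100a8 (2.73 on the log2 scale) and S100a9 (2.91) rose by edgeR at levels of at most 2.05 CPM. The 5 recruited monocyte markers summed to 1.53 to 3.69, 2.36 to 4.44, 1.64 and 2.43, and 2.90 to 5.47 CPM in the same order. The 5 endothelial markers summed to 662.5 to 1219 CPM over all libraries and none passed after TAC. The 6 mesothelial markers summed to 4.77 to 15.9 CPM. The 5 atrial markers, whose sum is mostly Nppa, a gene that pressure load raises in the ventricle, summed to 70.4 to 183.3 CPM in the Sham groups, 196.7 and 246.1 CPM in WT-TAC and 411.7 to 1863 CPM in HCN4F-TAC. Of the 7 cardiomyocyte markers, 4 fell and 2 rose after TAC in HCN4F, and 2 fell and 1 rose in WT.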
